A study of Mus musculus with 18 samples.

Results

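*Spp1* encodes osteopontin, a secreted phosphoprotein. The genes described here were *Spp1*, the receptor gene *Cd44* and the genes of 4 integrin subunits that bind osteopontin, *Itgav*, *Itgb1*, *Itgb3* and *Itgb5*, which make 6 of the 55536 genes in the count table. They were taken by symbol. *Spp1* was chosen by its measured values, selected on its lower level in Q175;Tyrobp-KO than in Q175 samples, so its values in that contrast are given as a description with no test, and the 5 receptor genes were chosen for the binding of their proteins.

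RNA was sequenced in bulk from cells that CD11b beads captured from the striatum of adult C57BL/6 mice, in 18 samples with total counts of 11260410 to 29771983. The 5 WT samples (1 female, 4 male) and the 5 Q175 samples (4 female, 1 male) carried intact *Tyrobp*. The 3 Tyrobp-KO samples (2 female, 1 male) and the 5 Q175;Tyrobp-KO samples (2 female, 3 male) lacked it in all cells of the mouse, not in microglia alone. Q175 mice are heterozygous for a knock-in of an expanded human *HTT* exon 1 in the mouse *Htt* gene and model Huntington's disease. No group was given a treatment in the labels. Separate samples are not stated to be separate litters or batches, so p-values measure the spread between these samples.

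Osteopontin binds integrins such as alpha-v beta 3, alpha-v beta 5 and alpha-v beta 1 through its Arg-Gly-Asp motif, and it is also a ligand of CD44, the main cell surface receptor of hyaluronan. An integrin is a pair of an alpha and a beta subunit, and alpha-v, the product of *Itgav*, can pair with the products of *Itgb1*, *Itgb3* and *Itgb5*. In the brain *Spp1* is known as a gene of microglia in development and of the disease-associated state, which microglia reach through the receptor TREM2 and its adaptor TYROBP.

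*Spp1* (ENSMUSG00000029304) lies on the plus strand of chromosome 5, at chr5:104435118-104441050 in GRCm38, and shares 309 of its 1648 exonic bases with the unconfirmed model *Gm42793*, which had 61 counts in all samples together against 10518 for *Spp1*. The 250 bases before a RefSeq start site of *Spp1* (GRCm38.p6, plus strand, chr5:104434861-104435110) are shown because the *Spp1* level moved with the *Tyrobp* genotype. *Spp1* had 2 promoter entries, and motif positions are counted from the start of the entry shown. Capitals mark matches to an ETS motif (AGGAAGT) and a RUNX motif (AACCACA), the motifs of factor families that microglia use:

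Spp1: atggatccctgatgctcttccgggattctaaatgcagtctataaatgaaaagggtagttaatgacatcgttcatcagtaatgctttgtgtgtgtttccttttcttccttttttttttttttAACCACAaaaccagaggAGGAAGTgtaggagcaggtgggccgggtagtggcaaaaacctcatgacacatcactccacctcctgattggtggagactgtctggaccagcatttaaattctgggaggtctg

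The RUNX match began 129 bases before the start site and the ETS match 112 bases before it, with no shared base. Windows from 250 bases before to 50 after the start were searched on both strands, and the ETS letters were present in 9.35% and the RUNX letters in 5.27% of 32851 promoters of this length. An E-box (CANNTG, in 72.3% of promoters) began 98 bases before the *Spp1* start, and an AP-1 motif (TGANTCA, in 7.81%) was not matched in this window. Of the receptor genes, *Itgav* had an ETS match on the minus strand that began 9 bases before its start and *Itgb5* had 3 E-boxes, while the windows of *Cd44* and *Itgb1* held none of the 4 motifs. *Itgb3* had no entry. A match describes letters and not a bound site.

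The deletion was visible in its own gene. *Tyrobp*, on a scale of counts normalized over the 18 samples, was 314.3 to 409.9 in Tyrobp-KO and 176.5 to 279.7 in Q175;Tyrobp-KO samples, against 3650 to 8130 in the 10 samples with intact *Tyrobp*. The labelled cell type was also checked, and the geometric mean over 20 microglial markers was 8637 to 23153, each marker having more than 100 normalized counts in every sample. Markers of other cells were present as well, with astrocyte marker levels of 357 to 564 in WT and 798 to 2197 in Q175 samples, which did not overlap. Oligodendrocyte marker levels stood above these, at 1488 to 4360 in WT and 2523 to 6676 in Q175 samples, which overlapped.

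As RPKM, which divides reads by library size and exonic length and so allows genes to be compared, *Itgb5* was the most abundant of the 6 genes, with group means between 150 ± 74.1 (SD, n = 5) in WT and 186 ± 65.4 (n = 3) in Tyrobp-KO samples. *Itgb1* came next at 58.0 to 76.1, followed by *Itgav* at 20.2 to 25.0, *Itgb3* at 11 to 15.2 and *Cd44* at 0.796 to 1.56. The order of the receptor genes was the same in 17 of 18 samples, the exception being 1 WT sample in which *Itgb1* stood above *Itgb5*. Across samples the RPKM ranges of *Itgb5* (63.7 to 241) and *Itgb1* (49.5 to 86.1) overlapped, as did those of *Itgav* (13.4 to 31.6) and *Itgb3* (5.50 to 18.1). *Cd44* (0.559 to 2.53) lay below the other receptor genes in every sample.

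*Spp1* had no fixed place in this order. With intact *Tyrobp* it ran from 3.89 to 99.2 RPKM and exceeded *Itgav* in 6 of 10 samples and *Cd44* in 10 of 10. Without *Tyrobp* it ran from 0.130 to 2.28 RPKM, and 7 of 8 samples had less *Spp1* than *Cd44*.

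Counts normalized for library size are used from here on, as levels of 1 gene across samples. *Spp1* was 1542, 1170, 309, 1053 and 1246 in WT samples and 12.3, 12.1 and 8.53 in Tyrobp-KO samples. In Q175 samples it was 278, 309.8, 118, 1617 and 3010, and in Q175;Tyrobp-KO samples it was 69.3, 16, 8.25, 6.48 and 3.95. The 8 samples without *Tyrobp*, at most 69.3, all lay below the 10 samples with it, at least 118. Of 18613 genes tested over the 4 groups, 9 (0.0484%) separated the samples in this way, *Spp1*, *Tyrobp*, *Lox*, *St8sia6*, *Adgrf2*, *Klk8*, *Olfm4*, *Cst7* and *Mmp12*, a count that is a description since the choice of *Spp1* fixed part of it.

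**Figure D1:**
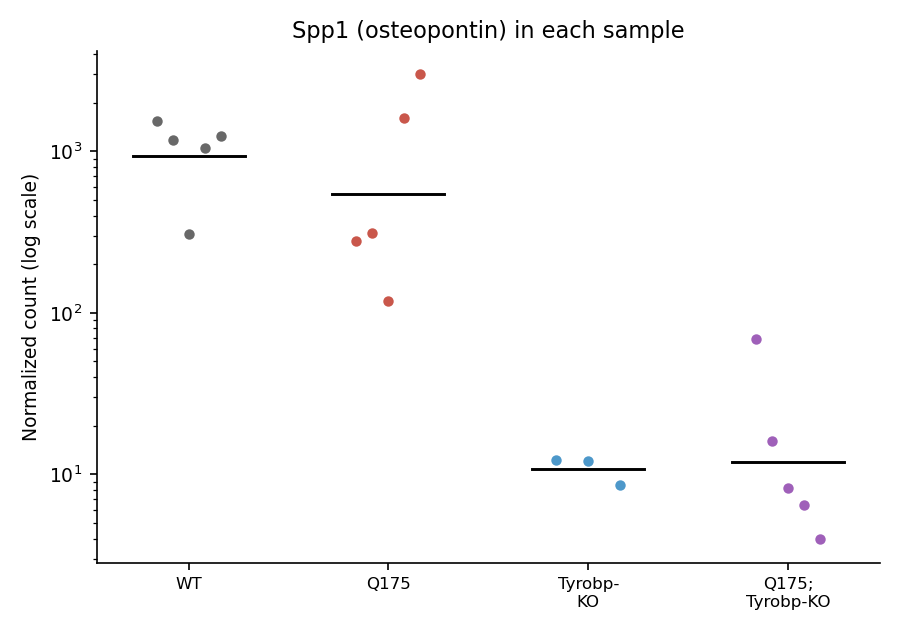
Normalized count of *Spp1* in each sample (points, log axis) by genotype, with the geometric mean of each group as a line. The 8 samples without *Tyrobp* sit between 3.95 and 69.3 and the 10 samples with it between 118 and 3010.

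Between Tyrobp-KO and WT mice, the comparison of *Tyrobp* deletion without the Huntington allele, *Spp1* fell from 1064 ± 459 (SD, n = 5) to 10.9 ± 2.10 (n = 3), a ratio of means of 97.2. The log2 fold change was -6.58 (SE 0.58, adjusted p = 0.00406, edgeR quasi-likelihood test with Benjamini-Hochberg adjustment over all genes). At a false discovery rate of 0.1, 1 of the 6 genes was called, and 4 of 18017 genes (0.0222%) were called in all by edgeR, each of them lower: *Spp1*, *Tyrobp*, *Clec7a*, which encodes the beta-glucan receptor Dectin-1, and *St8sia6*, which encodes a sialyltransferase. DESeq2 called 168 genes (0.932%), higher and lower. Each Tyrobp-KO sample lay below each WT sample, as was the case for 2.33% of genes. The Tyrobp-KO values rest on 7 to 14 reads a library. The level of border-associated macrophage markers was also higher in Tyrobp-KO (31.5 to 40.2) than in WT samples (15.9 to 23.6). With this level as a term in the edgeR fit the log2 fold change was -6.62. The unadjusted p was 0.000135 and the adjusted p 0.9998 (7.87e-35 to 0.9998 over 18 alternatives). Since the groups did not overlap in this level, that fit cannot separate it from genotype. Of those 11 markers none was at 0 in all samples, and 7 passed the filter on low values in this comparison. The median marker averaged 11.1 normalized counts in WT and 22.8 in Tyrobp-KO samples, so this level rests on low counts. In a bulk library, fewer cells with *Spp1* and less *Spp1* per cell cannot be told apart.

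In mice with the Huntington allele, *Spp1* had a mean of 1066 ± 1242 (n = 5) with *Tyrobp* and 20.8 ± 27.5 (n = 5) without it, a ratio of 51.3 and a log2 fold change of -5.72. Each Q175;Tyrobp-KO sample lay below each Q175 sample, as did those of 0.393% of genes. The highest Q175;Tyrobp-KO value, 69.3, came from 62 reads and the other 4 from 5 to 19 reads. Leaving out 1 sample at a time moved the log2 fold change between -6.93 and -4.88. It was -4.62 with sex as a term and -4.90 with the non-microglial marker score as a term.

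Between Q175 and WT samples, the comparison of the Huntington allele with *Tyrobp* intact, the *Spp1* means were almost the same (1066 and 1064) and the spread was not. Q175 samples spanned 25.5-fold, with replicates 14 and 17 at 1617 and 3010 and the other 3 at 118 to 309.8, while WT samples spanned 5.0-fold. The log2 fold change was -0.01 (edgeR adjusted p = 0.9998, SE 0.72, approximate 95% interval -1.42 to 1.39). The Q175 values also entered the choice of *Spp1*, so this p and interval are not free of that choice. None of the 6 genes was called, and 0 of 18266 genes (0%) were called by edgeR, with 1000 higher and 140 lower at an unadjusted p under 0.05 and 234 called by DESeq2 (1.28%). The value turned on single libraries: it was -0.90 without Q175 replicate 17 and -2.19 (adjusted p = 0.409, against 0.409 to 1.0 over 21 alternatives) without Q175 replicates 14 and 17. It was -1.43 with sex as a term and -3.71 with the non-microglial marker score as a term. Q175 replicates 14 and 17 were also the highest Q175 samples in *Cd44*, at 216 and 316. Their monocyte and neutrophil marker levels were 61.4 and 53.1, against at most 22.3 in the other 3. Over the 10 samples with *Tyrobp*, *Spp1* had Pearson's r of 0.17 (Spearman's rho 0.30) with the monocyte and neutrophil level. With the medium spiny neuron marker level r was -0.73 (rho -0.62). The part of the monocyte and neutrophil level in the *Spp1* spread was not tested.

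Without *Tyrobp*, *Spp1* was 10.9 ± 2.10 (n = 3) in Tyrobp-KO and 20.8 ± 27.5 (n = 5) in Q175;Tyrobp-KO samples (log2 fold change 0.94, edgeR adjusted p = 0.724, SE 0.95), and the groups overlapped. In 9 of 15 pairs of samples the Q175;Tyrobp-KO sample was the lower. With the border-associated macrophage level as a term the log2 fold change was 3.21 (edgeR adjusted p = 0.999, against 0.692 to 0.999 over 17 alternatives). The difference between the effects of the Q175 allele with and without *Tyrobp* was 0.94 on the log2 scale, given as a description, and it was -0.33 without Q175;Tyrobp-KO replicate 5. These comparisons share samples with those above and are not independent of them. The Q175;Tyrobp-KO values also entered the choice of *Spp1*, so the test against Tyrobp-KO is not free of that choice.

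**Figure D2:**
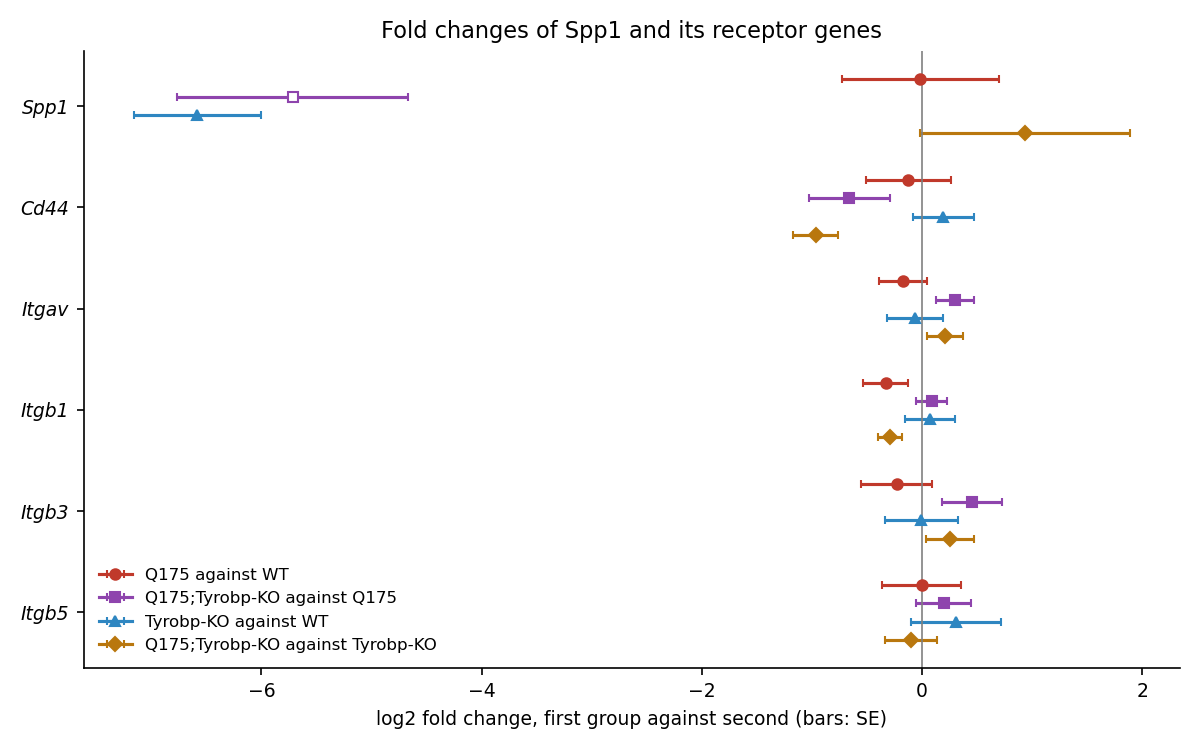
log2 fold change of each gene in 4 comparisons (symbols, with SE as bars; the open square is the value that led to the choice of *Spp1*). *Spp1* stands at -6.58 and -5.72 in the comparisons of *Tyrobp* deletion, while receptor values lie between -0.96 and 0.45.

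The genes whose levels followed *Spp1* most closely were found by Pearson's r of log2 CPM (library-size-scaled counts) over the 18 samples, among 17615 genes with a mean of at least 10 normalized counts. They were *St8sia6* (r = 0.94), *Lox*, which encodes lysyl oxidase, *Clec7a*, *Rai14*, *Tyrobp*, *Mmp12*, which encodes macrophage elastase, *Ch25h*, which encodes cholesterol 25-hydroxylase, *Cst7*, which encodes cystatin F, *Igf1* and *Lpl*, which encodes lipoprotein lipase (r = 0.88). Since the samples fall into clusters by *Tyrobp* genotype, r over all of them includes that split. Spearman's rho kept 6 of the 10.

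Within the 10 samples with intact *Tyrobp*, an alternative chosen after the data were seen, the closest genes were *Lilrb4a* (r = 0.97), *Cst7* (0.97), *Igf1* (0.96), *Msr1* (0.96) and *Mmp12* (0.95), and 4 of the first 10 were shared with the list over all samples. *Tyrobp* itself had r = 0.35 there. None of the 10 genes most like *Spp1* over all samples had as large a ratio of WT to Tyrobp-KO means as *Spp1*. *Ch25h*, the nearest, had 129 ± 75.6 in WT and 5.42 ± 4.02 in Tyrobp-KO samples, and *Clec7a* had 1490 ± 431 and 264 ± 39.3.

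**Figure D3:**
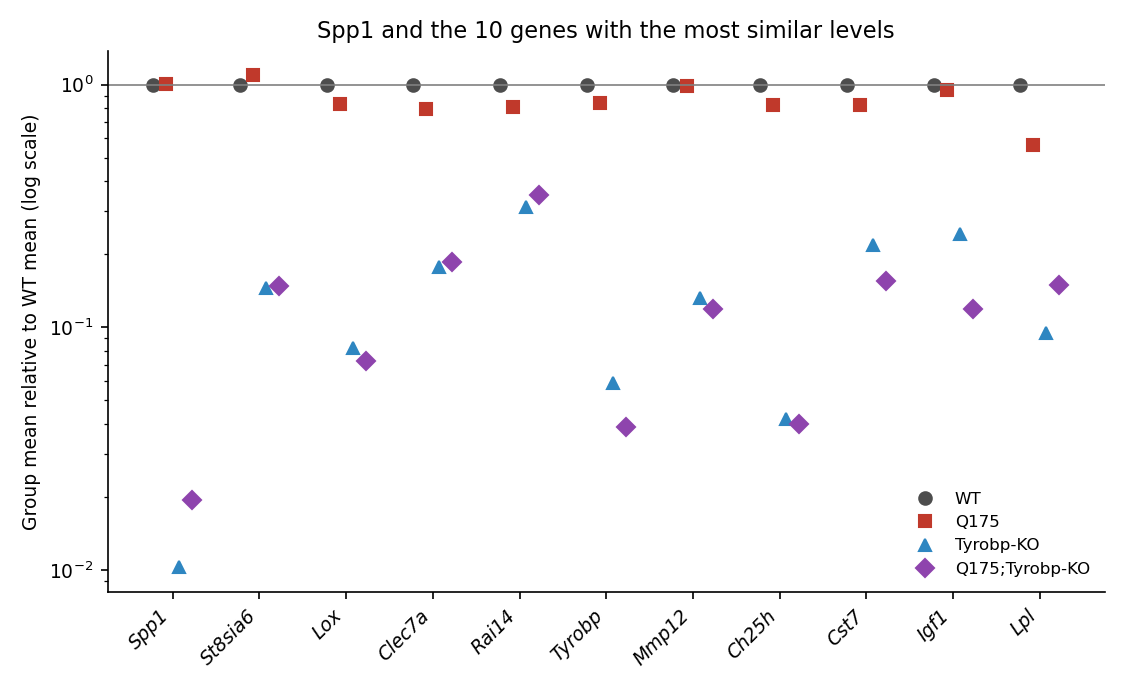
Mean normalized count of *Spp1* and the 10 genes most like it in each genotype, relative to the WT mean (log axis). Both groups without *Tyrobp* sit below WT and Q175 for every gene shown, and *Spp1* lies lowest. The genes were picked by their r with *Spp1* over all samples, so the shared direction follows in part from that choice.

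*Cd44* (ENSMUSG00000005087, minus strand, chr2:102811141-102901665), the hyaluronan and osteopontin receptor, was the receptor gene with the largest differences. It was 159, 165, 233, 166 and 119 in WT, 248, 169 and 166 in Tyrobp-KO, 89.8, 91.4, 69.7, 216 and 316 in Q175, and 98.3, 115, 105, 98.3 and 79.0 in Q175;Tyrobp-KO samples. All 5 Q175;Tyrobp-KO samples lay below all 3 Tyrobp-KO samples, as 6.23% of the 17723 genes tested in that comparison did, and the Q175 samples spread over the range of every other group.

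Between Q175;Tyrobp-KO and Tyrobp-KO mice the *Cd44* means were 99.3 ± 13.3 (n = 5) and 194 ± 46.9 (n = 3), with a log2 fold change of -0.96 (SE 0.20). The unadjusted p was 0.00107 and the adjusted p 0.291 by edgeR, which called 0 of 17723 genes (0%), with 883 higher and 1460 lower at an unadjusted p under 0.05. DESeq2 called *Cd44* (adjusted p = 0.0056, against 0.0056 to 0.999 over 18 alternatives) together with 680 genes in all (3.84%). The border-associated macrophage level was 14.2 to 24.3 in Q175;Tyrobp-KO against 31.5 to 40.2 in Tyrobp-KO samples, and with it as a term the *Cd44* difference was -0.67. The monocyte and neutrophil marker level was 24.3 to 97.3 against 60.9 to 113, and its part in the result was not tested.

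Over the 8 samples without *Tyrobp*, *Cd44* had r = 0.85 (Spearman's rho 0.74) with the border-associated macrophage level, and over the 10 samples with it r = 0.10 (rho 0.12). The 8 samples join Tyrobp-KO and Q175;Tyrobp-KO, which did not overlap in *Cd44* or in that level, so the r of 0.85 includes the group split. The border-associated macrophage level also rests on low counts, as given above. With the monocyte and neutrophil level r was 0.74 (rho 0.84) in the 10 samples and 0.68 (rho 0.64) in the 8. The genes most like *Cd44* over all 18 samples were *Cybb* (r = 0.87), which encodes the catalytic subunit of the phagocyte NADPH oxidase, *Mettl15*, *Ms4a6c*, *Ctla2b* and *Igsf6*. In the other comparisons *Cd44* overlapped between groups, with log2 fold changes of -0.12 (SE 0.39, interval -0.88 to 0.64) for Q175 against WT, 0.19 (SE 0.28, interval -0.35 to 0.73) for Tyrobp-KO against WT and -0.66 (SE 0.36, interval -1.37 to 0.06) for Q175;Tyrobp-KO against Q175. The Q175 against WT value for *Cd44* was -1.50 with the non-microglial marker score as a term, -0.60 with sex as a term and -1.03 without Q175 replicates 14 and 17.

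**Figure D4:**
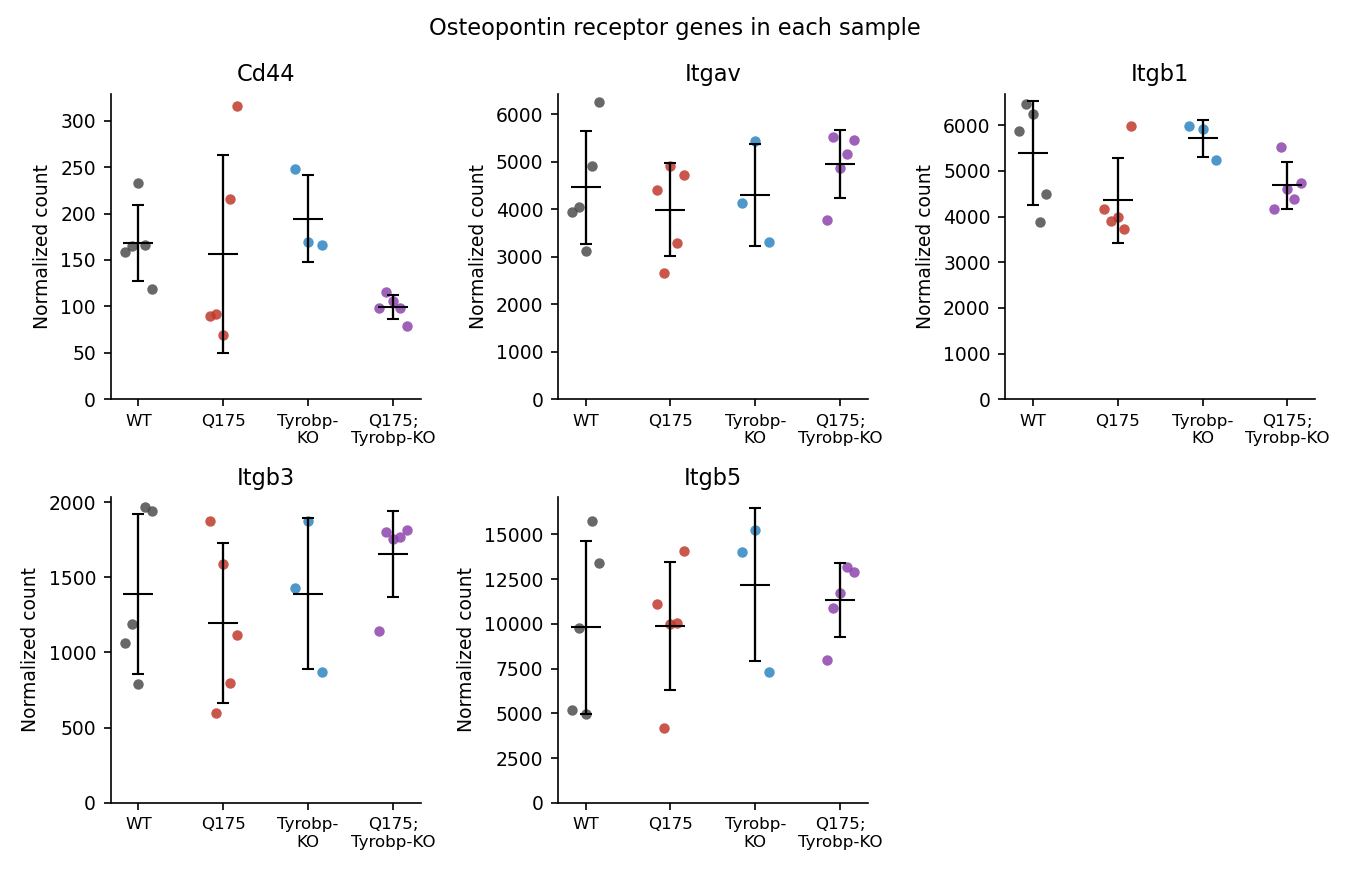
Normalized counts of the 5 receptor genes in each sample (points), with the group mean and SD (bars). All 5 Q175;Tyrobp-KO samples have less *Cd44* than the 3 Tyrobp-KO samples, and the 4 integrin genes overlap between all groups.

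*Itgav* (ENSMUSG00000027087, plus strand, chr2:83724397-83806916) encodes the alpha-v subunit, which can pair with the products of *Itgb1*, *Itgb3* and *Itgb5*. It was 3949, 4054, 3118, 4922 and 6258 in WT, 4137, 5439 and 3316 in Tyrobp-KO, 4402, 2655, 4909.6, 3294 and 4715 in Q175, and 3771, 5512, 4867, 5164 and 5455 in Q175;Tyrobp-KO samples. Every group overlapped every other. The largest difference was that between Q175;Tyrobp-KO (4954 ± 709, n = 5) and Q175 (3995 ± 976, n = 5), a log2 fold change of 0.30 (edgeR adjusted p = 0.533, SE 0.17, interval -0.04 to 0.63).

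Among the beta subunits, *Itgb1* (ENSMUSG00000025809, plus strand, chr8:128685654-128733200) encodes the subunit with the most alpha partners. Its range was 3871 to 6472 (median 5882) in WT, 5247 to 5978 (median 5926) in Tyrobp-KO, 3721 to 5985 (median 3995) in Q175 and 4170 to 5514 (median 4598) in Q175;Tyrobp-KO samples. Its lowest unadjusted p was 0.0256, for Q175;Tyrobp-KO against Tyrobp-KO (log2 fold change -0.29, edgeR adjusted p = 0.324, SE 0.11), where 14 of 15 pairs of samples had the lower value in Q175;Tyrobp-KO. Against WT, Q175 samples had a log2 fold change of -0.33 (edgeR adjusted p = 0.952, SE 0.20).

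*Itgb3* (ENSMUSG00000020689, plus strand, chr11:104608000-104670476), which encodes the beta subunit of the classical vitronectin receptor, was 1066, 1192, 787, 1965 and 1938 in WT, 1429, 1875 and 869.8 in Tyrobp-KO, 1873, 598, 1590, 795 and 1118 in Q175, and 1143, 1804, 1751, 1765 and 1815 in Q175;Tyrobp-KO samples. Q175;Tyrobp-KO replicate 5, which had the most *Spp1* and the lowest microglial marker level of its group, had the least *Itgb3*. The difference from Q175 was 0.45 on the log2 scale (SE 0.27, adjusted p = 0.533, edgeR, interval -0.07 to 0.98).

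*Itgb5* (ENSMUSG00000022817, plus strand, chr16:33829665-33949338) is known as a gene that microglia express more than other brain cells. It ranged from 4934 to 15770.5 (median 9761) in WT, 7314 to 15270 (median 14012) in Tyrobp-KO, 4167 to 14059 (median 10037) in Q175 and 7995 to 13166 (median 11697) in Q175;Tyrobp-KO samples. The lowest adjusted p of *Itgb5* was 0.710 (edgeR), for Q175;Tyrobp-KO against Q175, and the largest log2 fold change was 0.31 (SE 0.41, interval -0.49 to 1.11), for Tyrobp-KO against WT. Across the 5 comparisons, the interaction included, edgeR called none of the 5 receptor genes, where it called 2 of 18059 genes (0.0111%) between Q175;Tyrobp-KO and Q175, *Tyrobp* and *St8sia6*, and 0 of 18613 (0%) for the interaction, with 556 higher and 562 lower at an unadjusted p under 0.05. DESeq2 called 41 (0.227%) and 2 (0.0107%) genes in those 2 fits.

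By RPKM, *Itgb5* made up 64.5% ± 9.09 (SD, n = 18) of the sum over the alpha-v partner genes *Itgb1*, *Itgb3*, *Itgb5*, *Itgb6* and *Itgb8*, *Itgb1* 28.5% ± 9.31, *Itgb3* 5.24% ± 1.12 and *Itgb8* 1.82% ± 0.99. The *Itgb5* share was 59.9% ± 14.3 in WT, 65.4% ± 7.24 in Tyrobp-KO, 65.4% ± 8.07 in Q175 and 67.5% ± 3.97 in Q175;Tyrobp-KO samples, within the spread of the samples. *Itgb6* was at 0 to 5.44 normalized counts.

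Levels of 3 of the 4 integrin genes, *Itgav*, *Itgb3* and *Itgb5*, moved together from sample to sample. *Itgav* and *Itgb3* had r = 0.93 (Spearman's rho 0.88) over the 18 samples, 0.88 without the 2 samples farthest from the *Itgav* median, 0.91 in the 10 samples with *Tyrobp* and 0.97 in the 8 without it. *Itgb5* had r = 0.80 with *Itgav* (rho 0.72) and r = 0.80 with *Itgb3* (rho 0.75), and *Itgb1* had r of -0.06 to 0.04 with these 3 genes. *Spp1* had r of -0.33 to 0.37 with the receptor genes over all samples. Within the 10 samples with *Tyrobp* the r of *Spp1* was 0.74 with *Cd44*. Those 10 samples pool WT and Q175, and Q175 replicates 14 and 17 were the highest of their group in both genes. Among WT samples, replicate 6 had the least *Spp1* (309) and the most *Cd44* (233). The microglial marker level moved with *Itgav*, *Itgb3* and *Itgb5*, with r of 0.79, 0.79 and 0.90 over the 18 samples against 0.35 for *Itgb1*. The part of that level in the result was not tested. Such values share library preparation and normalization and carry no p. The genes most like *Itgb5* were *Tapbp* (r = 0.99), *Dusp7*, *Grn*, *Slc15a3* and the microglial marker *Tmem119* (r = 0.98), those most like *Itgb3* were *Plagl2* (r = 0.98), *Slc29a3*, *Ptprj*, *Lpin2* and *P2rx7*, and those most like *Itgav* were *Pak2* (r = 0.98), *Slc29a3*, *Tor1aip1*, *Nfatc3* and *Erlec1*. Those most like *Itgb1* were *1600012H06Rik* (r = 0.95), *Kpna4*, *Abhd13*, *Mcfd2* and *Clcc1*.

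**Figure D5:**
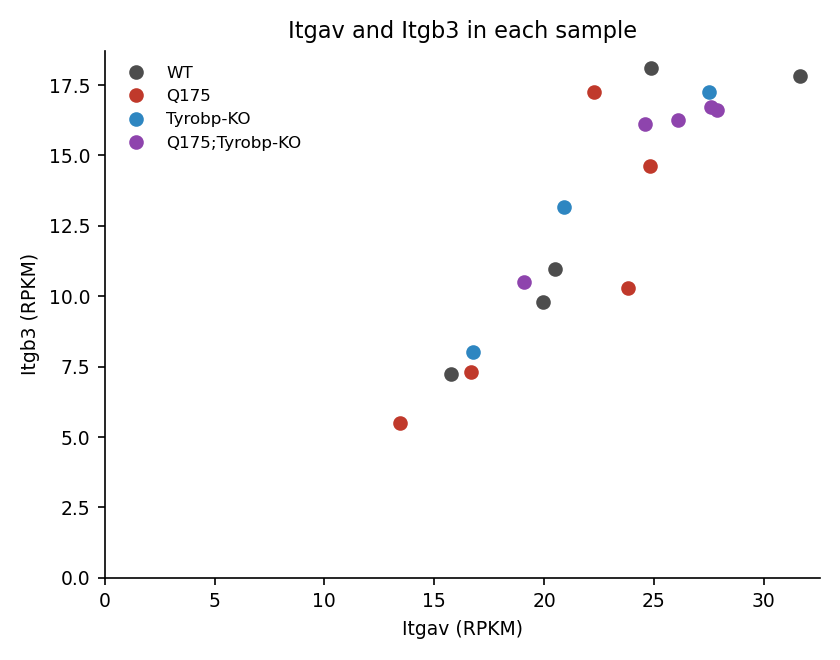
RPKM of *Itgav* (horizontal axis) and *Itgb3* (vertical axis) in each of the 18 samples, coloured by genotype. The points rise together (r = 0.93), with *Itgav* at 13.4 to 31.6 and *Itgb3* at 5.50 to 18.1.

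Other genes of the pathway were read from lists, counted at an unadjusted p under 0.05 because edgeR called none of their genes but *Spp1* and *Clec7a*. Over all genes, the shares past that threshold were 5.47% higher and 0.766% lower for Q175 against WT, 3.45% and 4.56% for Q175;Tyrobp-KO against Q175, 3.66% and 3.15% for Tyrobp-KO against WT, and 4.98% and 8.24% for Q175;Tyrobp-KO against Tyrobp-KO. Of 5 other osteopontin-binding integrin subunit genes, 4 were tested between Q175;Tyrobp-KO and Q175, and 1 had a lower value, *Itga5*, the alpha subunit of the fibronectin receptor (402 ± 32.4 against 587 ± 215, log2 fold change -0.57, edgeR adjusted p = 0.533, SE 0.22). *Itga9*, whose product binds the thrombin-cleaved form of osteopontin, had 2137 ± 489 against 1618 ± 545 (log2 fold change 0.39, SE 0.23). A separate list held 8 genes of other subunits of alpha-v, alpha-4 and alpha-9 integrins and of myeloid integrins, all tested. In the same comparison 2 of them had higher values (*Itga6* and *Itgam*) and 1 had lower values (*Itgax*). *Itgax*, the CD11c gene, was at 166 ± 97.2 against 440.4 ± 303 (log2 fold change -1.42, SE 0.47). *Itgam*, whose product CD11b the beads capture, was at 2832 ± 487 against 1753 ± 775 (log2 fold change 0.69, SE 0.29).

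Of the other members of the family of small integrin-binding glycoproteins to which osteopontin belongs, *Dmp1* passed the filter on low values in each comparison, with means of 5.64 to 21.6, and *Ibsp*, *Dspp* and *Mepe* were at means of 0 to 2.15. Among 17 genes of other ligands of the same receptors, 15 were tested between Q175 and WT, where 3 had higher and 1 had lower values at an unadjusted p under 0.05, and the same number was tested between Q175;Tyrobp-KO and Q175, where 0 had higher and 3 had lower values. *Fn1*, the fibronectin gene, was at 141 ± 44.7 in Q175 against 277 ± 118 in WT samples (log2 fold change -0.98, edgeR adjusted p = 0.413, SE 0.30). *Mfge8*, whose product bridges apoptotic cells to alpha-v integrins, was at 795 ± 153 against 472 ± 225 (log2 fold change 0.75, SE 0.29). *Lgals3*, the galectin-3 gene, was at 36.0 ± 9.57 in Q175;Tyrobp-KO against 88.8 ± 64.7 in Q175 samples (log2 fold change -1.30, SE 0.45). The 3 with higher values in Q175 than in WT samples were *Mfge8*, *Tnc* and *Hapln1*. The astrocyte marker level was higher in Q175 samples too, and 14 of its 15 markers had an unadjusted p under 0.05, all higher, between Q175 and WT. The part of that level in the result was not tested.

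Of 11 genes of proteases that cleave osteopontin or CD44, 8 were tested in each comparison. *Mmp12* was at 19.8 ± 15 in Q175;Tyrobp-KO against 163 ± 118 in Q175 samples (log2 fold change -3.07, edgeR adjusted p = 0.533, SE 0.68) and at 21.9 ± 16.1 in Tyrobp-KO against 166 ± 54.4 in WT samples (log2 fold change -2.92, edgeR adjusted p = 0.565, SE 0.60). It was the only one of the 8 with an unadjusted p under 0.05 in each of these fits. The sheddases of CD44 were abundant, *Adam10* at group means of 5908 to 7321 and *Adam17* at 3546 to 4667. *Adam17* had the only unadjusted p under 0.05 of the 8 for Q175 against WT (log2 fold change -0.42, SE 0.18), and *Adam10* (-0.31, SE 0.11) and *Plau*, the urokinase gene (-0.36, SE 0.16), had it for Q175;Tyrobp-KO against Tyrobp-KO. Of 28 adaptors and signalling genes of CD44 and integrins, all tested, 0 had higher and 1 had lower values between Q175;Tyrobp-KO and Q175, *Src* (log2 fold change -0.27, SE 0.12), which is near the share over all genes, and the median of the list was 0.02 against -0.05 for all genes tested. In Q175 against WT 3 of the 28 had higher values (*Parva*, *Fermt2* and *Ezr*) and 0 lower, in Tyrobp-KO against WT 1 had higher values (*Ezr*) and 0 lower, and in Q175;Tyrobp-KO against Tyrobp-KO 2 had higher values (*Nf2* and *Ptk2b*) and 3 lower (*Cdc42*, *Rac1* and *Lpxn*). Of 15 astrocyte markers, 14 had higher values in Q175 against WT and 8 in Tyrobp-KO against WT, with 0 lower in each. The part of the astrocyte level in these values was not tested.

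*Spp1* also belongs to a list of 23 genes of disease-associated microglia. Between Tyrobp-KO and WT samples 2 of them were called, *Spp1* and *Clec7a*, both lower, and 12 had lower and 1 had higher values at an unadjusted p under 0.05, with a median log2 fold change of -1.10 against 0.02 for all 18017 genes tested. Between Q175;Tyrobp-KO and Q175 samples, leaving out *Spp1* because that contrast chose it, edgeR called none of the other 22, and 15 had lower and 0 had higher values, with a median of -1.18 against -0.05 for all genes tested, among them *Cst7* (log2 fold change -2.40, SE 0.48) and *Lpl* (-1.91, SE 0.40). *Apoe*, a further gene of the list, had -0.87 (SE 0.48). Between Q175 and WT samples 0 had lower and 1 had higher values, *Fabp5* (log2 fold change 0.77, SE 0.29), and the median was -0.16. The astrocyte marker level was higher in Q175 samples as well, and its part in the *Fabp5* value was not tested. *Trem2*, whose product signals through TYROBP, was at group means of 4109.7 to 5534, with a log2 fold change of -0.01 (SE 0.21) between Q175;Tyrobp-KO and Q175 samples and of -0.42 (SE 0.16, edgeR adjusted p = 0.326) between Q175;Tyrobp-KO and Tyrobp-KO samples. In the latter comparison 21 of the list were tested, and 2 had higher and 4 had lower values, *Trem2* among them.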

How the data were processed

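Striatal cells captured with CD11b beads were sequenced in 18 samples after SMART-Seq v4 amplification for low RNA input. The authors used STAR for alignment to GRCm38 and featureCounts for counting. The deposited values were whole-number counts with no normalization, and 2 columns of the table that matched no sample were not used. All 55536 identifiers matched GENCODE M21, which gave symbols, positions and exonic lengths. The labels name GRCh38 as the build and 2 striata a sample, where the methods name GRCm38 and 1.

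Groups came from the genotype in the labels. Each comparison kept the genes that reached 1 CPM in 1 or more of its samples, and edgeR 4.0.16 was run in R 4.3.3 (TMM factors, quasi-likelihood test, Benjamini-Hochberg adjustment over all genes, false discovery rate 0.1). The code was tested on simulated data. The study's methods name DESeq2, which was run as an alternative (1.42.0). SEs were computed as the log2 fold change over the square root of F, and approximate 95% intervals from them. Normalized counts are counts divided by TMM effective library sizes and multiplied by their mean. Marker levels are geometric means of normalized counts plus 1. Total counts limit precision mainly for *Spp1* without *Tyrobp*. The members and gene lists were chosen with earlier results of these data known. The 6 genes are given in full, with up to 4 examples a list (called genes, then the most abundant, and, chosen after their values were seen, those with an unadjusted p under 0.05), and the 10 genes most like *Spp1* and 5 most like each receptor gene. Promoter windows came from RefSeq, with entries for 5 of the 6 genes. Alternatives changed the scaling, filter, tool, threshold, samples and added terms for sex, border-associated macrophage level or non-microglial marker score.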

Additional observations from a re-analysis of the deposited data

Results flagged for a closer look

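In 21 sets of 4 to 10 samples (the 6 genes and *Tyrobp* in the groups of 5), 3 samples stood apart by Dixon's criterion, which chance meets in about 1 of 20 sets. *Spp1* in Q175;Tyrobp-KO replicate 5 was 69.3 normalized counts, with the next sample at 16 and a gap of 0.815 of the range. *Itgb3* in the same sample was 1143, the lowest of its group, with the next sample at 1751 and a gap of 0.904 of the range. *Itgb1* in Q175 replicate 17 was 5985, with the next sample at 4177 and a gap of 0.799 of the range. No receptor gene passed the interaction test of the Q175 allele and *Tyrobp* deletion (edgeR).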

How the results depend on the processing

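The *Spp1* call between Tyrobp-KO and WT held in 17 of 18 alternatives, with log2 fold changes of -6.82 to -6.40. It was lost with border-associated macrophage level as a term (-6.62, unadjusted p = 0.000135, edgeR, leaving 0 of the 6 genes and 0 of all genes called). The groups did not overlap in that level, so this fit cannot separate it from genotype, and the cause was not tested. The call passed narrowly in 1 fit over all 4 groups (adjusted p = 0.09997, edgeR, within 7.87e-35 to 0.9998 over the alternatives). Leaving out single samples moved *Spp1* from -0.90 to 0.25 between Q175 and WT and from -0.33 to 1.78 in the interaction. The other changed directions were those of receptor genes that were not called: for Q175 against WT *Cd44* -0.57 to 0.037 and *Itgb5* -0.17 to 0.22, for Tyrobp-KO against WT *Cd44* -0.025 to 0.35, *Itgav* -0.25 to 0.084, *Itgb1* -0.038 to 0.14 and *Itgb3* -0.26 to 0.21, and for *Itgb5* -0.34 to 0.10 between Q175;Tyrobp-KO and Tyrobp-KO and -0.31 to 0.13 in the interaction. With border-associated macrophage level as a term, signs changed for *Itgav* (0.011), *Itgb3* (0.024) and *Itgb5* (0.18) in Q175 against WT, for *Cd44* (-0.28), *Itgb1* (-0.028) and *Itgb3* (0.052) in Tyrobp-KO against WT and for *Itgb1* (-0.010) in the interaction. With the non-microglial score they changed for *Itgb3* (0.33) in Q175 against WT and for *Itgav* (0.038) and *Itgb3* (0.21) in Tyrobp-KO against WT. In the interaction, sex as a term gave *Itgb1* -0.018, *Itgb5* 0.034 and *Spp1* 2.23, and total count scaling gave *Itgb5* 0.034. Total count scaling moved the median log2 fold change of all genes by 0.13 in Q175;Tyrobp-KO against Q175 and by 0.11 in the interaction. DESeq2 called 1 receptor gene, *Cd44*, between Q175;Tyrobp-KO and Tyrobp-KO.

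Counts over all genes moved more. DESeq2 called 234 genes for Q175 against WT, 41 for Q175;Tyrobp-KO against Q175, 168 for Tyrobp-KO against WT, 680 for Q175;Tyrobp-KO against Tyrobp-KO and 2 for the interaction. For Q175;Tyrobp-KO against Q175 edgeR called 9 genes with no filter, 14 in 1 fit over all groups, 1 at a false discovery rate of 0.05, with sex, with the non-microglial score or with the border-associated macrophage level as a term, and 1 to 5 without single samples. For Tyrobp-KO against WT it called 15 with no filter, 8 in 1 fit over all groups, 2 with the non-microglial score and 2 to 8 without single samples. In Q175;Tyrobp-KO against Tyrobp-KO, *Spp1* fell under the low count filter without Q175;Tyrobp-KO replicate 5 and had no value. No paired analysis was possible because the groups share no replicate number. Depth limits *Spp1* where *Tyrobp* is deleted, at 5 to 62 reads a library.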
